A study of Mus musculus with 4 samples.

Results

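Integrins are the cell-surface receptors that tie cells to the extracellular matrix and, on leukocytes, to other cells. Each receptor pairs an alpha with a beta subunit, and the pairing sets the ligand. Laminins are secreted trimers of an alpha, a beta and a gamma chain that assemble into the sheet of every basement membrane, where several integrins bind them. In the developing kidney, integrin alpha8 and its ligand nephronectin are needed for the ureteric bud to grow into the mesenchyme, and laminin alpha1 gives way to laminin alpha5 as the basement membranes of nephrons mature.

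All mouse genes annotated with a single symbol of an integrin alpha subunit, an integrin beta subunit from 1 to 8 or a laminin chain were taken, which gave 34 genes, 24 integrins and 10 laminins, of 18194 genes measured. They were covered by 73 of the 34958 probe sets with a single symbol. A total of 14 genes had 1 probe set and 20 had more, up to 6 for Itgb1. Counts use a gene's brightest probe set by mean log2 over the arrays, and further probe sets above the control level are described beside it. Itga11 and Itgad were not analysed here.

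The study injected wildtype mouse blastocysts with 3 to 5 embryonic stem cells marked by green fluorescent protein (GFP) and deleted for Tfrc, the gene of the transferrin receptor. Kidneys of the chimeric embryos were taken at embryonic day 15.5, dissociated with collagenase and trypsin, and sorted. GFP-positive Tfrc-/- cells were profiled on 2 Affymetrix arrays and GFP-negative wildtype cells, the control, on another 2. Both groups thus come from kidneys that mixed donor and host cells, the Tfrc-/- cells descend from injected embryonic stem cells, and no array holds donor cells with Tfrc intact, so deletion and donor line cannot be told apart. The sources used here do not say whether an array held cells of 1 embryo or of a pool.

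The values are intensities on a linear scale, given in the order replicate 1, replicate 2, and differences are mean log2 of the labelled Tfrc-null arrays minus mean log2 of the wildtype arrays. The control level, the highest of 27 bacterial control probe sets, was 7.18 to 9.08 across the 4 arrays. The brightest Tfrc probe set read 1759 and 2348 in wildtype and 2509 and 3175 in GFP-positive cells. Another read 14.5 and 36.9 against 60.8 and 63.1, also without overlap of the groups. All Tfrc probe sets above the control level on the 4 arrays were higher in GFP-positive cells, by log2 differences of 0.47 to 1.42. The remaining probe set exceeded the control level on no array and differed by -0.22. The label of the GFP-positive arrays was thus not borne out by any detected Tfrc probe set, and these arrays are called "labelled Tfrc-null". Every direction given here rests on that label. The sources used here do not name the deleted part of the gene, and a probe set outside it would check nothing. Markers of kidney cell types were checked for lying above the control level on both arrays of at least 1 group. This held for all 15 ureteric bud, all 8 cap mesenchyme, all 12 stromal and all 5 measured podocyte markers. It also held for all 12 endothelial and all 12 leukocyte and macrophage markers, and for 14546 of all 18194 genes. Passing this level therefore does not identify the cells as kidney. The sorted cells are mixed populations, in which fewer cells of a type and less RNA per cell cannot be told apart.

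The integrin gene Itga9 stood apart from the rest, with a higher level in the GFP-positive cells on all 3 of its probe sets, by 1.44-fold to 5.49-fold, while most integrin and laminin genes differed by no more than their replicates did. Of the 34 genes, 29 lay above the control level on both arrays of at least 1 group. For 17 of these 29 the groups overlapped, and 14 of the 17 differed by 0.2 or less on the log2 scale. For 20 of the 29, the difference between groups did not exceed the gap between the 2 replicates of at least 1 group. The median absolute log2 difference over the 29 was 0.20 between groups, 0.32 between replicates of the wildtype and 0.19 between those of the labelled Tfrc-null cells.

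With limma, 0 of the 34 genes passed a Benjamini-Hochberg adjusted p of 0.05, where 0% of all genes did. An unadjusted p under 0.05 was found for 3 of the 34 (8.82%), against 8.02% of all genes. These were Itga9, with the higher level on the labelled Tfrc-null arrays, and Itgb2 and Lama5, with the lower. Both arrays of a group lay above both of the other for 15 genes. They were higher on the labelled Tfrc-null arrays for 7 of the 34 (20.6%), against 20.6% of all genes, and lower for 8 (23.5%), against 14.3%. The 15 include Lama3, Lamb3 and Itgax, which did not lie above the control level on both arrays of either group. Among genes that did in at least 1 group, 6 of 29 were higher and 6 lower, against 3219 and 2205 of 14546. A separation together with at least a 1.5-fold difference was seen for Itga9, Itgb2 and Lama5, or 8.82% of the genes, against 8.49% of all genes. With 2 arrays against 2 an exact two-sided permutation test cannot go below 0.333, and the small number of arrays limits the precision of every value.

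The median log2 difference was 0.01 over the 34 genes, -0.00045 over the integrins and 0.04 over the laminins, and 0.04 over all 18194 genes. Integrin alpha genes ranged from -0.50 (Itga10) to 2.46 (Itga9), integrin beta genes from -0.97 (Itgb2) to 0.55 (Itgb5), and laminin genes from -0.85 (Lama5) to 0.44 (Lama2).

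**Figure D1:**
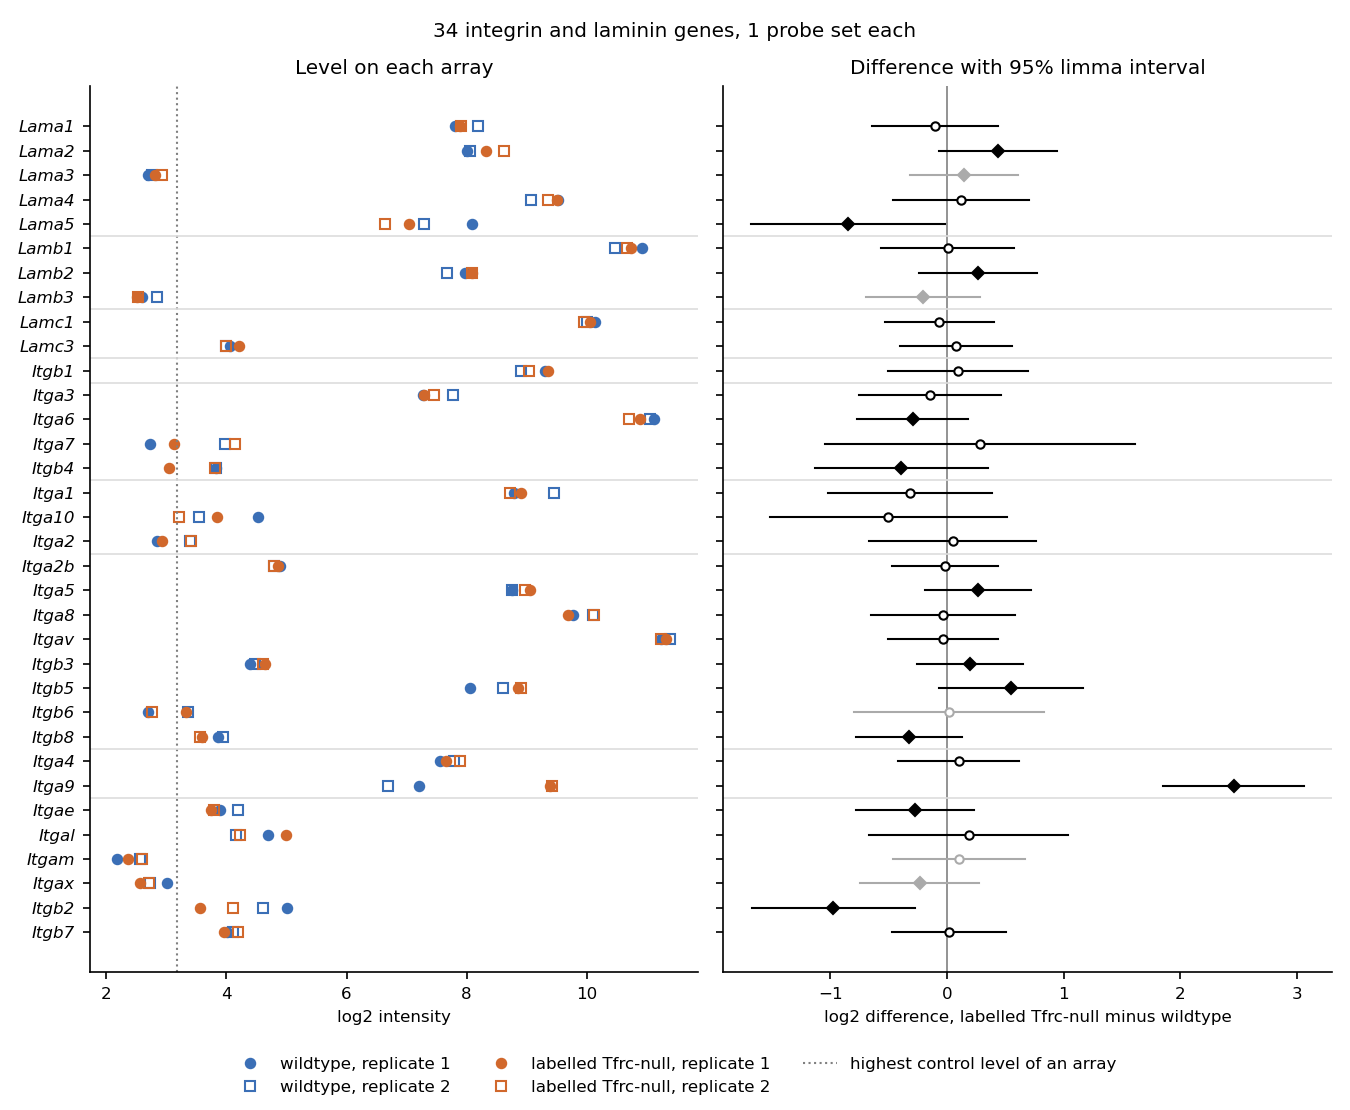
Left, log2 intensity of the 34 genes on each of the 4 arrays, by role, with circles for replicate 1, open squares for replicate 2 and a dotted line at the highest control level of an array. Right, the log2 difference with its 95% limma interval, with diamonds where the groups do not overlap and grey where the gene did not lie above the control level on both arrays of a group. Itga9 stands at 2.46, and the interval of most other genes spans 0.

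Itga9 encodes the integrin alpha9 subunit, which pairs with beta1 and binds tenascin, the EIIIA segment of fibronectin, VCAM1 and osteopontin. The probe set with the highest mean log2 over all arrays, 1460285_at, read 148 and 103 in the wildtype and 671 and 683 in the labelled Tfrc-null cells. Every labelled Tfrc-null value lay above every wildtype value, and the labelled Tfrc-null values were close to each other. The means were 125 ± 31.8 and 677 ± 8.38 (SD, n = 2 each), a 5.49-fold difference. On the log2 scale this was 2.46 (SE 0.24, 95% interval 1.85 to 3.06, limma adjusted p = 0.122), and its unadjusted p ranked 15 among 18194 genes. Within replicate 1 it was 2.18 and within replicate 2 it was 2.73.

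The size of the Itga9 difference depended on the probe set, while its direction did not. Probe set 1460285_at ranks as the brightest through its labelled Tfrc-null values, so the choice itself depended on the difference: in the wildtype its mean of 125 is below the 181 of 1450029_s_at. Probe set 1450029_s_at read 159 and 203 in wildtype and 287 and 330.0 in labelled Tfrc-null cells. Probe set 1420860_at read 50.1 and 42.3 against 70.2 and 62.4. Neither showed an overlap of the groups. Their differences of 0.78 and 0.52 were 31.6% and 21.3% of that of 1460285_at. Averaging the 3 probe sets gave a log2 difference of 1.25 (SE 0.16, limma adjusted p = 0.136). Of the 18 genes with more than 1 probe set above the control level on both arrays of a group, Itga9 and Itga6 were those whose such probe sets all separated the groups in the same direction.

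The partners and relatives of alpha9 did not stand apart in the same way. Itga4, the closest relative of Itga9 and the alpha subunit of a fibronectin and VCAM1 receptor of leukocytes and mesenchyme, read 188 and 222 against 202 and 238, with overlap of the groups and a log2 difference of 0.10 (95% interval -0.42 to 0.62). Its other probe sets were dim, at 4.82 to 31.5. Those above the control level on both arrays of a group were higher by 0.23 to 0.38, and 1456498_at and 1450155_at did not overlap. The one that exceeded the control level on no array differed by -0.09. Itgb1, the beta1 subunit shared by most of the alpha subunits, read 636 and 482 against 658 and 528 on its brightest probe set. On both groups the array numbered 1 was the brighter, and the log2 difference was 0.09 (95% interval -0.51 to 0.69). A second Itgb1 probe set, 1452545_a_at, read 285 and 245 against 366 and 269.7, also with overlap. The remaining 4 read under 25 on all arrays. Among them, 1426919_at (0.30) and 1427771_x_at (0.19) were higher without overlap, while 1426920_x_at (-0.11) and 1438119_at (-0.09) overlapped.

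**Figure D2:**
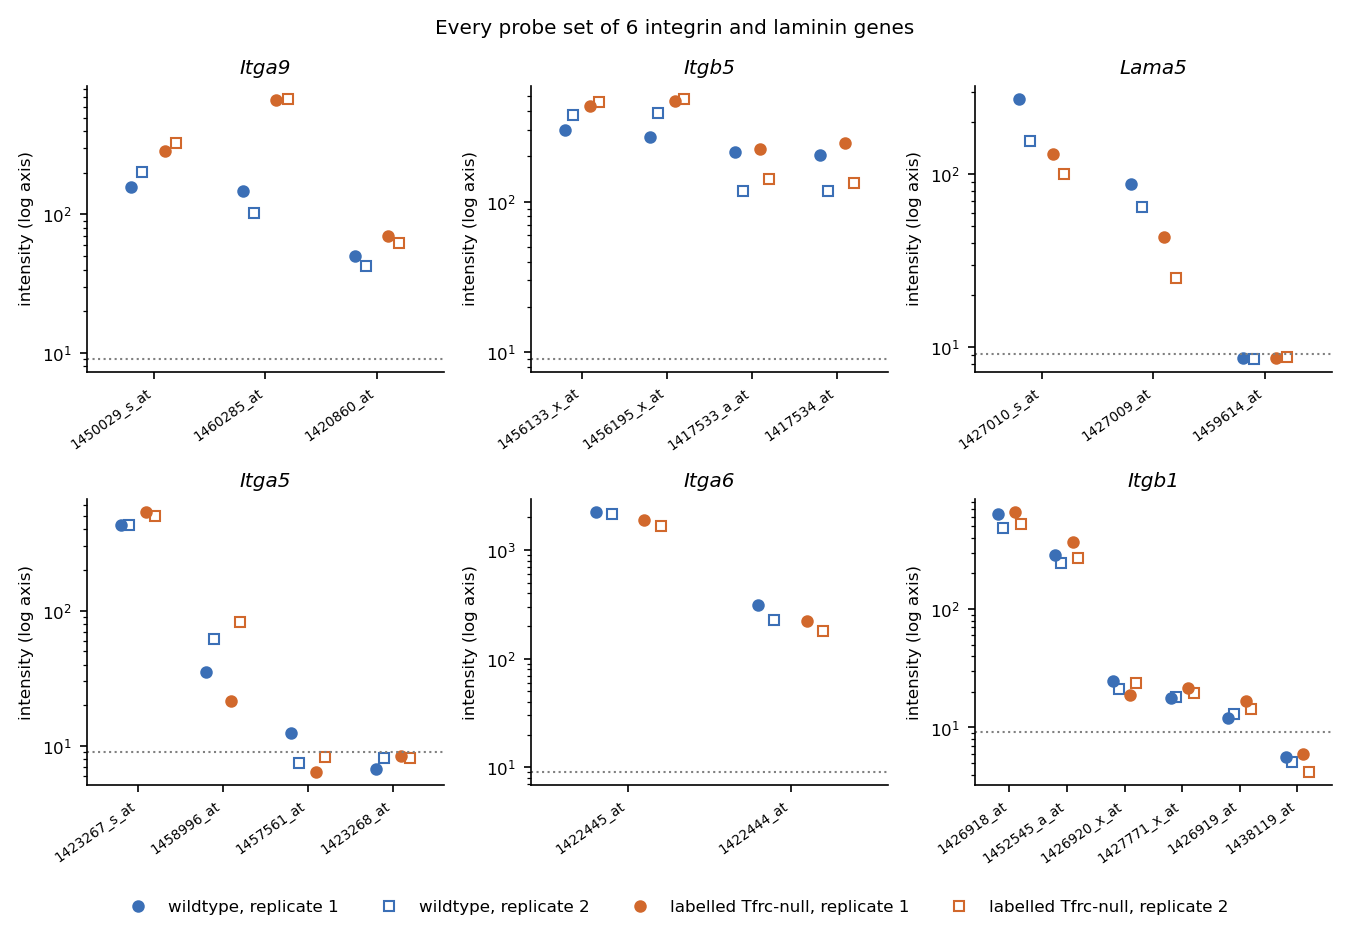
Intensity (log axis) of every probe set of Itga9, Itgb5, Lama5, Itga5, Itga6 and Itgb1 on the 4 arrays, with wildtype in blue, labelled Tfrc-null in orange, circles for replicate 1, open squares for replicate 2 and a dotted line at the highest control level of an array. All 3 Itga9 probe sets separate the groups, by log2 differences from 0.52 to 2.46, and 2 of the 4 Itgb5 probe sets do.

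Among the laminin alpha chains, which carry the integrin-binding end of the trimer, Lama5 was lower and Lama2 higher on the labelled Tfrc-null arrays without overlap, and Lama1 and Lama4 overlapped. Lama5, the alpha5 chain of mature epithelial and vascular basement membranes, read 273 and 157 in the wildtype and 132 and 99.9 in the labelled Tfrc-null cells. The wildtype arrays were themselves 1.74-fold apart. The means were 215 ± 82.1 and 116 ± 22.6 (SD, n = 2 each), a 1.80-fold difference (log2 difference -0.85, SE 0.33, 95% interval -1.68 to -0.02, limma adjusted p = 0.609). The second Lama5 probe set, 1427009_at, read 87.3 and 64.4 against 43.0 and 24.9, again without overlap and with a log2 difference of -1.19. The remaining probe set lay between 8.54 and 8.73, near the control level, and carried a difference of 0.02. The log2 difference of Lama5 was -0.45 without wildtype replicate 1 and -1.25 without wildtype replicate 2, and -1.05 and -0.65 without labelled Tfrc-null replicate 1 and 2.

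Lama2, the alpha2 chain of muscle and mesenchymal basement membranes, read 257 and 266 against 319.7 and 392. Its means of 262 ± 6.36 and 356 ± 51.4 (SD, n = 2 each) differed 1.35-fold (log2 difference 0.44, SE 0.20, limma adjusted p = 0.693). Without labelled Tfrc-null replicate 2 the log2 difference was 0.29. Lama4, the alpha4 chain of vessels and mesenchyme, read 738 and 539.6 against 724 and 652, so that all 4 values lay within the wildtype range. Its dim second probe set read 14.9 and 13.0 against 18.9 and 17.9. Lama1, the alpha1 chain of early nephron epithelium, read 224 and 293 against 238 and 239, with both labelled Tfrc-null values inside the wildtype range. Lama3, the alpha3 chain of stratified and glandular epithelium, did not exceed the control level on any array with the probe set used. Its other probe set read 9.78 and 7.09 against 5.62 and 5.41, above the control level on wildtype replicate 1 alone.

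The chains that complete these trimers overlapped or differed little. Lamb1, the beta1 chain, read 1938 and 1422 against 1699 and 1638, a log2 difference of 0.01 (95% interval -0.56 to 0.58), and both labelled Tfrc-null values lay between the wildtype values. A further pair of Lamb1 probe sets, with readings from 91.5 to 1058, differed by -0.06 and 0.06, and the remaining one lay near the control level at 5.26 to 8.67. Lamc1, the gamma1 chain found in nearly all laminins, read 1127 and 1026 against 1065 and 991 (log2 difference -0.07, 95% interval -0.53 to 0.40). Its second probe set read 211 and 138 against 173 and 94.9, where the array numbered 1 was the brighter in each group. Lamb2, the beta2 chain of the glomerular basement membrane, read 251 and 205 against 272 and 273, without overlap and with a log2 difference of 0.27 (SE 0.20, limma adjusted p = 0.873), which was 0.41 without wildtype replicate 1 and 0.12 without wildtype replicate 2. Lamc3 stood at 15.9 to 18.6 on the probe set used and at 10.4 to 15.3 on the other, with overlap on both. Lamb3, the partner of Lama3, did not exceed the control level.

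Of the laminin receptor genes, Itga6 and Itgb4 had lower readings on the labelled Tfrc-null arrays without overlap, by small folds. Itga6, the alpha6 subunit of epithelium and endothelium, read 2227 and 2133 against 1898 and 1663. The groups did not overlap, with means of 2180.0 ± 66.5 and 1781 ± 166 (SD, n = 2 each), though the fold was 1.23 (log2 difference -0.29, SE 0.19, limma adjusted p = 0.821). A second Itga6 probe set read 314 and 229 against 223 and 179, again without overlap and with a log2 difference of -0.42. Itgb4, the beta subunit that joins alpha6 in hemidesmosomes, read 14.1 on both wildtype arrays and 8.27 and 14.0 on the others, so that 1 array carried nearly all of its log2 difference of -0.39. Without that array, labelled Tfrc-null replicate 1, the difference was -0.01, and without labelled Tfrc-null replicate 2 it was -0.77. On log2(intensity + 16) it was -0.16. Itga3, the alpha3 subunit of podocytes and ureteric bud, read 154 and 218 against 156 and 176, with overlap. Its second probe set, 1421997_s_at, read 131 and 117 against 99.0 and 109.8, without overlap and with a log2 difference of -0.25, and the remaining one differed by 0.18. Itga7, the alpha7 subunit of muscle, read 6.65 and 15.7 against 8.73 and 17.6 and followed the replicate number in both groups.

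Receptors of the arginine-glycine-aspartate motif, which bind fibronectin, vitronectin, nephronectin and latent TGF-beta, included bright members with nearly equal groups. Itga8, the nephronectin receptor subunit of the kidney mesenchyme, read 877 and 1098 against 823 and 1112 (log2 difference -0.04, 95% interval -0.65 to 0.58). Its dim second probe set differed by 0.16. Itgav, the alphav subunit, read 2408 and 2692 against 2557 and 2423 (log2 difference -0.03, 95% interval -0.50 to 0.44). Its other 4 probe sets lay between 5.55 and 34.4. Itga5, the alpha5 subunit of the fibronectin receptor, read 432 and 430.3 against 534 and 502. The groups did not overlap, at a log2 difference of 0.26 (SE 0.18, limma adjusted p = 0.845). Another Itga5 probe set, 1458996_at, read 35.5 and 62.0 against 21.4 and 81.8, with overlap and a log2 difference of -0.17, and the remaining pair lay near the control level at 6.44 to 12.5. With the mean of the 4 probe sets the difference turned to -0.03.

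Itgb5 and Itgb3 are beta partners of alphav. Itgb5 read 267 and 388 against 463 and 481 on its brightest probe set, 1456195_x_at. There the labelled Tfrc-null values lay above both wildtype values, with a log2 difference of 0.55 (SE 0.24, 95% interval -0.07 to 1.17, limma adjusted p = 0.676). Probe set 1456133_x_at read 301 and 378 against 435 and 459.9, also without overlap and with a log2 difference of 0.41. Its wildtype mean of 339 exceeds the 328 of 1456195_x_at, which ranks as the brightest through its labelled Tfrc-null values. The other 2 probe sets gave a different pattern. For 1417533_a_at the readings were 214 and 117 against 224 and 142, and for 1417534_at they were 206 and 118 against 245 and 134, so both followed the replicate number and the groups overlapped. The suffix _x marks probes that can bind other transcripts too. The 4 probe sets differed in the same direction, by 0.17 to 0.55, and their mean gave 0.34. Without wildtype replicate 1 the log2 difference was 0.28 and without wildtype replicate 2 it was 0.82.

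Itgb3, the beta3 subunit of platelets and endothelium, read 20.9 and 22.2 against 25.1 and 24.4, without overlap and at a log2 difference of 0.20. Its second probe set read 12.2 and 9.43 against 11.9 and 9.87, with overlap and a difference of 0.02. The mean of both gave 0.11 and log2(intensity + 16) gave 0.12. Itga2b, the platelet subunit that pairs with beta3, read 29.6 and 27.7 against 29.0 and 27.7, at a log2 difference of -0.02. Itgb8, a beta subunit that activates TGF-beta, read 14.5 and 15.4 against 12.1 and 11.8, without overlap (log2 difference -0.32, SE 0.18, limma adjusted p = 0.772), and on log2(intensity + 16) it differed by -0.15. Itgb6, an epithelial beta subunit with the same function, lay above the control level on 1 array of each group, and its other probe set on labelled Tfrc-null replicate 1.

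The collagen receptors overlapped. Itga1, the alpha1 subunit of mesenchyme and vessels, read 444 and 706 against 479 and 421. Its log2 difference of -0.32 split into 0.11 for replicate 1 and -0.75 for replicate 2. Another probe set differed by 0.24. Itga10, a cartilage subunit, read 23.0 and 11.6 against 14.3 and 9.30. Itga2, the platelet and epithelial collagen receptor subunit, read 7.22 and 10.5 against 7.62 and 10.6, close to the control level.

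Among the integrins of leukocytes, the shared beta2 subunit gene Itgb2 was the lower on the labelled Tfrc-null arrays. It read 32.3 and 24.3 in wildtype and 11.8 and 17.2 in labelled Tfrc-null cells, without overlap. The means were 28.3 ± 5.66 and 14.5 ± 3.82 (SD, n = 2 each), a 1.96-fold difference (log2 difference -0.97, SE 0.27, 95% interval -1.67 to -0.28, limma adjusted p = 0.437). It was -1.45 between the arrays numbered 1 and -0.50 between those numbered 2, from a single probe set. At this low level it depended on the log scale, with -0.54 on log2(intensity + 16). Of the alpha subunits that pair with beta2, Itgal read 25.9 and 17.9 against 31.8 and 18.8, where replicate 1 was the brighter in each group and the log2 difference was 0.19. A second Itgal probe set stood near the control level at 7.56 to 8.66. Itgam exceeded the control level on 0 arrays, and Itgax on wildtype replicate 1. Itgb7, the beta subunit of lymphocyte homing receptors, read 16.2 and 17.3 against 15.6 and 18.4. Its partner Itgae read 14.8 and 18.2 against 13.4 and 13.8, without overlap and with a log2 difference of -0.27, and a second Itgae probe set differed by -0.03. The difference was -0.12 without wildtype replicate 2, -0.42 without wildtype replicate 1, -0.15 with its probe sets averaged and -0.13 on log2(intensity + 16).

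**Figure D3:**
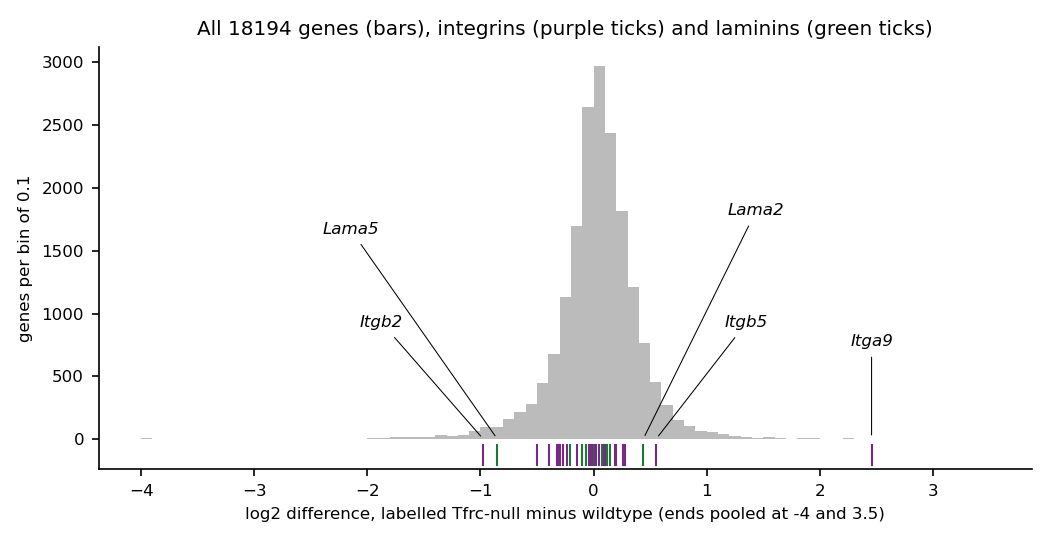
Histogram of the log2 difference of all 18194 genes in bins of 0.1, with a purple tick for each of the 24 integrin genes and a green tick for each of the 10 laminin genes below the axis. The ticks lie under the bulk of the bars except Itga9 at 2.46, with Itgb2 at -0.97 and Lama5 at -0.85 in the lower flank.

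Markers of several cell types moved with the groups, and their part in the results above was not tested. For comparison, 10469 of all 18194 genes had the higher mean in the labelled Tfrc-null cells and 7722 the lower. Beside Lama2, described above with muscle and mesenchyme, 12 of 12 stromal markers had a higher mean in the labelled Tfrc-null cells. Their summed intensity was 12300.3 to 17409.5 in wildtype against 19087 to 22646. The sums of 6 muscle markers overlapped, at 2714 to 2995 against 2897 to 2927, with 4 higher and 2 lower. No cell type was assigned to Itga9. Other genes described above with mesenchyme, Lama4 (0.12), Itga4 (0.10), Itga8 (-0.04) and Itga1 (-0.32), overlapped on their brightest probe sets. Beside Lama5 and Itga6, described above with epithelium, the 15 markers of ureteric bud and collecting duct were lower in 14 cases. Their sums were 7462 to 8025 against 3045 to 3768. Itga3, described above with podocytes and ureteric bud, and Lama1, described with early nephron epithelium, overlapped on their brightest probe sets. The 12 endothelial markers were lower in 12 cases, with sums of 3862 to 4489 against 2672 to 3357. Genes described above with vessels or endothelium went both ways on their brightest probe sets. Lama5 and Itga6 were lower and Itgb3 (0.20) was higher without overlap, while Lama4 (0.12) and Itga1 (-0.32) overlapped. Of 8 cap mesenchyme markers, 6 were lower and 2 higher, with sums of 2411 to 2792 against 1829 to 2195. Each marker of these lists exceeded the control level on at least 1 array.

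Beside Itgb2, the sums of 12 leukocyte and macrophage markers overlapped, at 5831 to 6702 against 6117 to 6397, with 9 higher and 3 lower, among them the pan-leukocyte gene Ptprc at a log2 difference of -0.73. The sums of 8 granulocyte markers were 4494 to 7667 against 169 to 615, with 6 lower, and Elane among them exceeded the control level on 0 arrays. Beside Itga2b and Itgb3, the sums of 8 platelet markers were 458 to 535 against 899 to 979.9, with 4 higher and 4 lower. The higher sum was carried by Pf4, which macrophages also express and which read 368 and 427 against 876 and 784. Of the 8, 4 lay above the control level on both arrays of at least 1 group. Gp5 and Tubb1 exceeded the control level on 0 arrays.

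Genes that work with integrins and laminins were taken as 3 lists, in which 0 genes passed an adjusted p of 0.05 with limma. Of 15 basement membrane partners of laminin, 11 had the lower and 4 the higher mean on the labelled Tfrc-null arrays, with a median log2 difference of -0.12 against 0.04 over all genes. Over all 18194 genes, 7722 had the lower and 10469 the higher mean. An unadjusted p under 0.05 was found for 0 of them, against 8.02% of all genes. Hspg2, the proteoglycan perlecan of basement membranes, read 638 and 515 against 416 and 404 (log2 difference -0.48). The laminin linker Nid2 read 347 and 258 against 447 and 388 (0.48), while its relative Nid1 read 2460.3 and 1827 against 1673 and 1806 (-0.29). Smoc2, a calcium-binding matrix protein, read 158 and 91.6 against 226 and 174 (0.72), and Col4a2, a chain of the main type IV collagen, had a difference of -0.31.

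Of 18 measured ligands of integrins other than laminins, 13 had the higher and 5 the lower mean, with a median of 0.21. The background was 10469 higher and 7722 lower of all 18194 genes. An unadjusted p under 0.05 was found for 4 higher and 2 lower genes, against 4.03% and 3.98% of all genes. Vcam1, the vascular adhesion molecule bound by alpha4 and alpha9 integrins, read 599 and 497 in wildtype and 858 and 879 in labelled Tfrc-null cells, without overlap (log2 difference 0.67, SE 0.20, limma adjusted p = 0.453). Tnc, the tenascin ligand of alpha9, read 444 and 154 against 479 and 208 and followed the replicate number. Fn1, fibronectin, read 1373 and 1123 against 1711 and 1593 (0.41), without overlap. The alphav ligand Postn, periostin, read 461 and 226 against 1157 and 818 (1.59). Cdh1, E-cadherin and the ligand of the Itgae product, had a difference of -0.69, and Frem2, a basement membrane protein of epithelium, one of -0.76. Npnt, nephronectin, read 604 and 719 against 506 and 519.8, without overlap (-0.36, limma adjusted p = 0.759), beside the overlapping groups of its receptor gene Itga8. Postn and Cdh1 are also in the marker lists above.

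Of 25 measured adaptors and signalling proteins that bind integrin tails or act behind them, 15 had the higher and 10 the lower mean, with a median of 0.07. Here too the background was 10469 higher and 7722 lower of all 18194 genes. An unadjusted p under 0.05 was found for 2 of them, both higher, against 8.02% of all genes. They were Itgb1bp1, which encodes ICAP1, a protein that binds the beta1 tail and limits activation, at 231 and 292 against 408 and 399.8 (log2 difference 0.64, SE 0.21, limma adjusted p = 0.510), and the talin gene Tln2 at 51.7 and 84.7 against 102 and 122. The kinase gene Ptk2b had a difference of -0.85 and the tensin gene Tns3 one of 0.45, both without overlap.

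**Figure D4:**
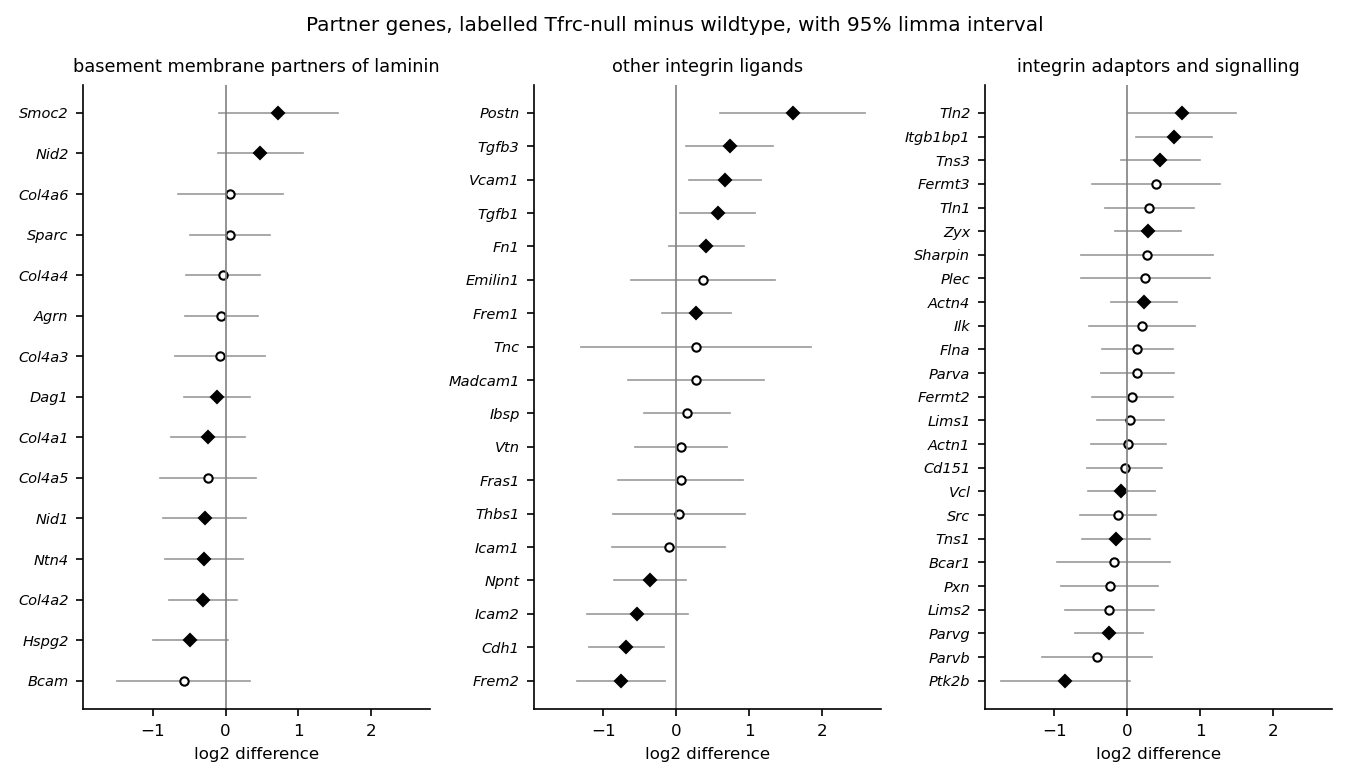
Log2 difference with its 95% limma interval for 15 basement membrane partners of laminin, 18 other integrin ligands and 25 integrin adaptors and signalling genes, each list sorted by size, with diamonds where the groups do not overlap. Postn at 1.59 stands highest and Ptk2b at -0.85 lowest.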

How the data were processed

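The authors deposited 1 table of probe set intensities on a linear scale for 4 arrays, and RMA is named in the submitters' processing notes, with its version and settings not given in the sources used here. Since RMA equalises the arrays, a shift shared by most genes would be removed. Per the labels, the RNA (50 ng) was amplified before biotin labelling. The log2 of each intensity was used without further normalization. Of 45101 probe sets, 34958 had a single symbol in the platform annotation, 932 several and 9211 none, and 18033 of 18194 genes were matched by Entrez identifier to RefSeq (GRCm38.p6). Groups were compared in R 4.3.3 by limma 3.58.1 (lmFit, then eBayes, on all 18194 genes without filter or block), with Benjamini-Hochberg adjustment at 0.05. Intervals are limma's at 95%. The script was tested on simulated data.

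A gene's values were given in full where it lay above the control level and either had an unadjusted p under 0.05 or separated the groups by at least 1.5-fold, and the other genes by role. From each partner list, up to 4 genes with the smallest p were to be named. Any other partner gene named (Fn1, Tnc, Npnt, Nid1) was picked with its values in view. The genes and lists were chosen with earlier results of these data known. The labels call the arrays biological replicates without naming animals, so p-values speak for these samples alone. They set a difference against the spread between these arrays, moderated by limma with a variance prior from all genes (3.26 prior degrees of freedom).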

Additional observations from a re-analysis of the deposited data

How the results depend on the processing

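With 2 arrays a group, 0 of the 34 genes passed the threshold in any of the 11 alternatives. Over all genes, 2 passed with the replicate number as a block, 2 with trend and robust variance and 1 where probe sets were averaged, against 0. The labels share replicate numbers without saying that they pair arrays. Deviations of the same-numbered arrays correlated at 0.512 across genes, and with the replicate block the adjusted p was 0.0949 for Itga9, 0.187 for Lama5 and 0.268 for Itgb2. The 12 genes above the control level whose groups did not overlap kept their direction in the 11 alternatives, except Itga5, which turned to -0.034 with the mean of all probe sets. For most alternatives this was fixed beforehand. Groups that do not overlap cannot change direction when 1 array is left out. Nor can they where the same probe set values are refitted or have 16 added. Only averaging the probe sets and quantile normalization could readily turn a direction. Integrins higher without overlap numbered 4, against 2 with the mean of all probe sets and 9 with every probe set on its own. Laminins higher without overlap numbered 3, and 5 with every probe set on its own. Laminins without overlap numbered 5, and 3 among genes above control on 2 or more arrays, of which 1 was lower. Integrins without overlap numbered 10, against 16 and 19 without wildtype replicate 1 and 2 and 19 and 14 without labelled Tfrc-null replicate 1 and 2 (6 to 11 higher, 8 to 10 lower). Laminins numbered 8 and 9, and 7 and 6, in the same order (3 to 5 higher, 2 to 5 lower). In these counts 1 value stands against 2, which overlap less readily. The share of all genes without overlap was not counted in the alternatives, so their counts have no background beside them. In the main setting, 16.7% of integrins were higher without overlap and 25% lower. For laminins the shares were 30% and 20%, and for all genes 20.6% and 14.3%. Quantile normalization moved the median of all genes to 0.03. Dim genes near the control level, such as Itgb6, Itgam, Itgax, Lama3 and Lamb3, cannot show a difference here.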
